A study of Rattus norvegicus with 39 samples.

Results

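The sodium-potassium pump moves sodium out of cells and potassium in, and in the brain it restores the ion gradients that firing neurons run down. It joins a catalytic alpha subunit, which splits ATP, with a beta subunit, a glycoprotein that brings alpha to the cell surface and tunes its affinity for potassium. Corticosteroids raise pump subunits and the kinase Sgk1 in kidney epithelium, which is the best known setting of their control. The beta subunits Atp1b1, found largely in neurons, and Atp1b2, an adhesion molecule of glia that is abundant in astrocytes, were examined here in hippocampal CA1. The members are all probe sets whose only symbol in the platform table is Atp1b1 or Atp1b2, which gave 2 of the 4737 genes named in this way and 6 of the 8799 probe sets in the table, 3 for each gene. Each is described on its own, by its identifier on the array.

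Transcripts were measured in CA1 tissue from 39 male rats of the Fisher 344 strain (spelled as in the labels) killed at 18 months, with 1 Affymetrix array per animal. LowInj rats (n = 10) were adrenalectomized, carried a 25 mg corticosterone pellet and were injected in the last 4 days with 5 mg of the hormone daily. IntermediateCort rats (n = 9) were adrenalectomized and carried a 200 mg corticosterone pellet, and LowCort rats (n = 10) were adrenalectomized and carried the 25 mg pellet alone. Sham rats (n = 10) were left with intact adrenals and an inert pellet, and pellets of all 4 groups stayed in place for 3 months. Adrenalectomy takes away the source of aldosterone as well as of corticosterone in all 3 operated groups. Rats on the 25 mg pellet, LowInj included, went on drinking saline with sucrose per the study's design text, so sodium intake and steroid dose cannot be told apart in comparisons of LowInj or LowCort with the other 2 groups. Dose, duration and route also differed together between LowInj and IntermediateCort.

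The values are log2 expression on each array, with array medians from 7.27 to 7.33, and they carry no read depth, so the number of arrays limits the precision. Differences were tested with limma over 6118 probe sets in 1 model of all 39 arrays, with two-sided tests and Benjamini-Hochberg adjustment over all of them. A probe set was called at an adjusted p under 0.05. The dissected tissue carried neuronal and CA1 transcripts, with 6 of 7 neuronal markers on the array and 3 of 3 CA1 pyramidal markers above the level filter, but 7 of 8 astrocyte markers and 4 of 6 choroid plexus and ependymal markers also passed it. In whole tissue, fewer cells of a type and less transcript per cell cannot be told apart.

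Atp1b2 had an upstream sequence in the RefSeq promoter table of the rat assembly GRCr8, and Atp1b1 is not in that table. The 250 bases before its start (chr10:54823709-54823958, minus strand) are shown because the comparisons asked about a steroid signal that acts on transcription, and capitals mark matches to the GC box GGGCGG.
Atp1b2: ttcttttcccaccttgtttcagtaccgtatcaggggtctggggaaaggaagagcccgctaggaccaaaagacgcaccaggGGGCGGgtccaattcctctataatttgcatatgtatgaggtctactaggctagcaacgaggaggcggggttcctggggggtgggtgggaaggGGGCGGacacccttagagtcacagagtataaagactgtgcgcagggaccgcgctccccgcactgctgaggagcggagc
Searched on both strands, these bases held 2 GC boxes, which begin 170 and 78 bases before the start, and 30.5% of 33469 rat promoters of the same length held at least 1. They held 0 copies of the motif AGAACA, one arm of the glucocorticoid response element, which 17.5% of the promoters held. The full palindromic element, which contains AGAACA, was found in 4 of the 33469 and not in this window.

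No probe set of either beta subunit passed the test between any of the groups. In each of the 6 comparisons limma called 0 of the 6, and all 6 had overlapping groups. Overlap was not counted over all probe sets, so it is not read as particular to these 6. The share of all probe sets called was 0.343% for LowInj against LowCort, 0.196% for LowInj against IntermediateCort and 0.229% for LowInj against Sham. It was 2.14% for IntermediateCort against LowCort, 0.0163% for IntermediateCort against Sham and 1.68% for LowCort against Sham. At an unadjusted p under 0.05 in this fit, which had no covariates, the 6 probe sets also gave 0 in each comparison. Over all probe sets that share was 7.37% for LowInj against LowCort, 11.4% for LowInj against IntermediateCort and 5.95% for LowInj against Sham, and 11.9% for IntermediateCort against LowCort, 4.22% for IntermediateCort against Sham and 13.6% for LowCort against Sham. The F test over the 4 groups called 2.27% of all probe sets and 0 of the 6, whose adjusted p ran from 0.761 to 0.896. A count of 0 among 6 lies near these shares, and a p that misses the threshold does not show that the groups were alike, so each difference is given with its interval.

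The brightest Atp1b1 probe set, rc_AI112173_at, had a mean log2 signal of 12.80 that stood at the 99.5th percentile of all probe sets. Its values ran from 12.52 to 12.99 in LowInj (median 12.82), from 12.60 to 13.00 in IntermediateCort (median 12.71), from 12.58 to 12.89 in LowCort (median 12.77) and from 12.66 to 12.93 in Sham (median 12.88). The 4 groups covered almost the same range. The largest difference was LowCort minus Sham at -0.07 on the log2 scale (SE 0.06, 95% interval -0.19 to 0.04, limma adjusted p = 0.627), with 7 of 10 LowCort rats below the Sham mean. As a fold of array signal this interval runs from 0.876 to 1.03, so larger falls in LowCort lie outside it in this fit without covariates. LowInj minus LowCort was 0.02 (-0.10 to 0.13) and IntermediateCort minus LowCort was 0.02 (-0.10 to 0.14). With differences between 3' and 5' control probe sets as covariates, LowCort minus Sham was -0.11 (SE 0.05, unadjusted p = 0.0305, adjusted p = 0.288 by limma).

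The second Atp1b1 probe set, rc_AI230614_s_at, was also very bright, at the 97.4th percentile. It ran from 11.14 to 11.91 in LowInj (median 11.69), from 11.42 to 11.86 in IntermediateCort (median 11.63), from 11.02 to 11.82 in LowCort (median 11.57) and from 11.15 to 11.75 in Sham (median 11.63). LowCort had the lowest mean, and its range held the whole of the Sham range. IntermediateCort minus LowCort was 0.15 (SE 0.10, interval -0.04 to 0.35, limma adjusted p = 0.585), with 7 of 9 IntermediateCort rats above the LowCort mean. LowInj minus LowCort was 0.12 (-0.07 to 0.31), with 8 of 10 LowInj rats above that mean. Both comparisons use the same LowCort arrays.

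The third Atp1b1 probe set, X63375exon_at, varied far more between animals than the other 2. Its values ran from 7.38 to 9.04 in LowInj (median 8.52), from 7.79 to 9.22 in IntermediateCort (median 8.73), from 7.53 to 8.98 in LowCort (median 8.38) and from 7.74 to 9.20 in Sham (median 8.51). Its SD within groups, 0.49, stood at the 98.5th percentile of all probe sets tested, against 0.13 and 0.21 for the other Atp1b1 probe sets. IntermediateCort minus LowCort was 0.36 (SE 0.21, interval -0.07 to 0.79, limma adjusted p = 0.567), the largest difference of either gene in any comparison. LowCort minus Sham was -0.28 (-0.70 to 0.15, adjusted p = 0.61 by limma) and LowInj minus Sham was -0.16 (-0.58 to 0.26). Its intervals were several times as wide as those of rc_AI112173_at, so it set a looser limit on any change. Leaving out 1 animal at a time, the difference of IntermediateCort from LowCort ran from 0.28 to 0.47. The value of 0.47 came without IntermediateCort subject 19, with an adjusted p of 0.341 by limma.

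**Figure D1:**
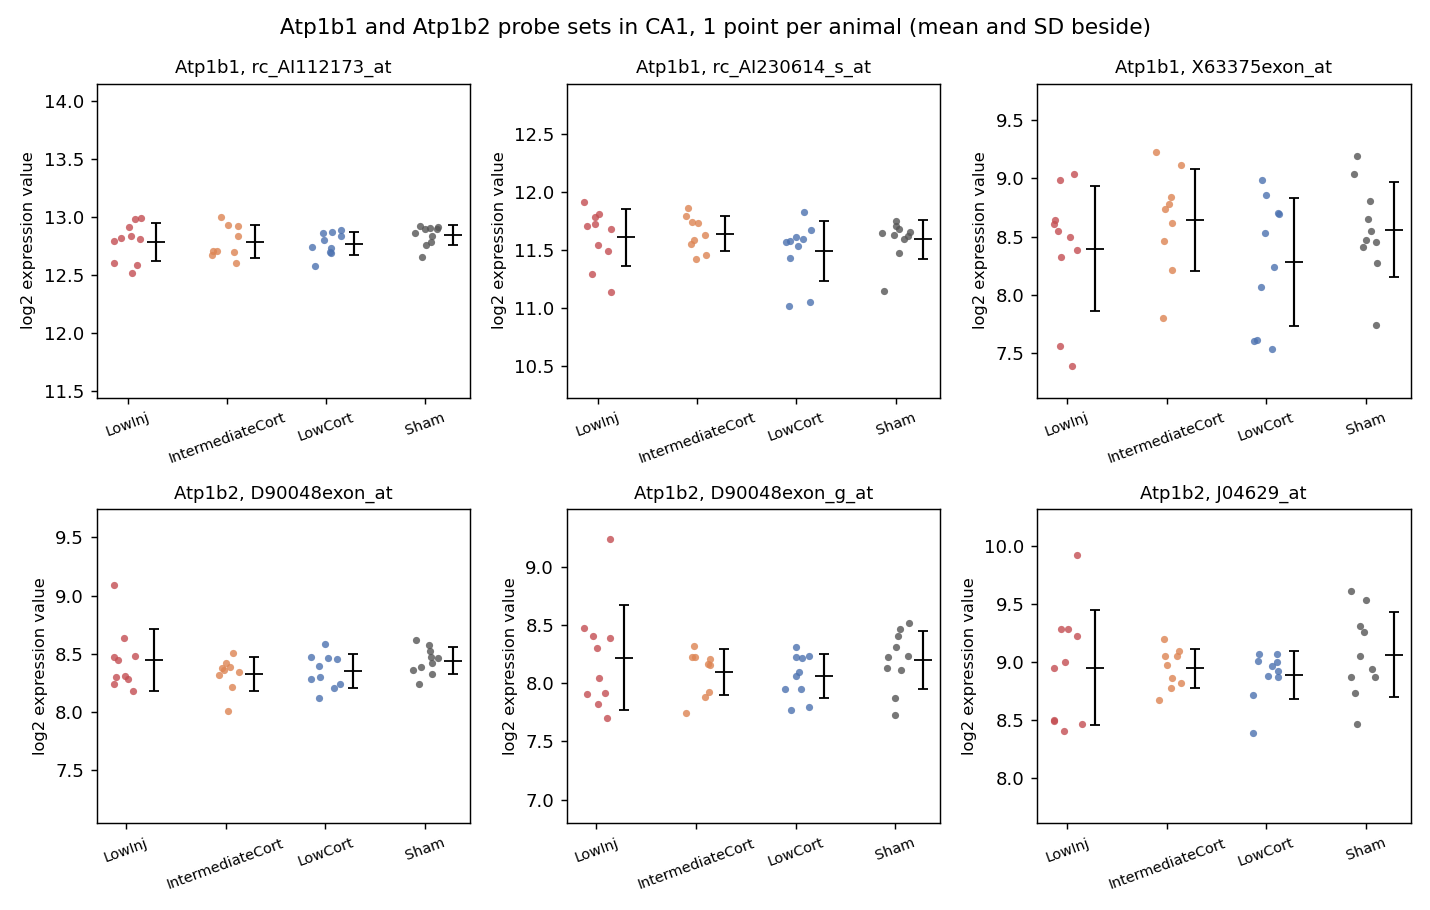
Log2 expression (vertical axis, the same span in each panel) of the 3 Atp1b1 and 3 Atp1b2 probe sets in LowInj, IntermediateCort, LowCort and Sham rats, 1 point per animal, with the group mean and SD as a bar beside the points. The groups overlap in each panel, X63375exon_at is the most scattered (SD within groups 0.49), and LowInj subject 30 stands apart in D90048exon_at (9.09) and D90048exon_g_at (9.24).

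Atp1b2 was measured at middle to high levels, between the 67.3rd and the 79.8th percentile. Its brightest probe set, J04629_at, ran from 8.41 to 9.92 in LowInj (median 8.97), from 8.67 to 9.19 in IntermediateCort (median 8.97), from 8.39 to 9.07 in LowCort (median 8.94) and from 8.47 to 9.61 in Sham (median 8.99). The medians lay within a few hundredths of each other, while the spread was uneven, with an SD of 0.49 in LowInj, 0.17 in IntermediateCort, 0.20 in LowCort and 0.36 in Sham. LowCort minus Sham was -0.18 (SE 0.14, interval -0.47 to 0.12, limma adjusted p = 0.643), and 8 of 10 LowCort rats lay below the Sham mean. LowInj minus LowCort was 0.06 (-0.23 to 0.35) and IntermediateCort minus LowCort was 0.06 (-0.24 to 0.36).

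Probe sets D90048exon_at and D90048exon_g_at carry the same sequence name and differ in suffix, and they were treated as related measurements of Atp1b2. D90048exon_at ran from 8.18 to 9.09 in LowInj (median 8.38), from 8.01 to 8.50 in IntermediateCort (median 8.36), from 8.12 to 8.58 in LowCort (median 8.35) and from 8.24 to 8.62 in Sham (median 8.44). One LowInj rat, subject 30, was above all the others. Its IntermediateCort minus Sham difference was -0.11 (SE 0.08, interval -0.27 to 0.05, limma adjusted p = 0.998), with 8 of 9 IntermediateCort rats below the Sham mean. D90048exon_g_at ran from 7.70 to 9.24 in LowInj (median 8.17), from 7.75 to 8.32 in IntermediateCort (median 8.17), from 7.77 to 8.31 in LowCort (median 8.08) and from 7.73 to 8.52 in Sham (median 8.23). The same LowInj rat was highest, and the other rats of the 4 groups shared 1 range. LowInj minus LowCort was 0.09 (-0.07 to 0.25) for D90048exon_at and 0.16 (-0.10 to 0.41) for D90048exon_g_at, and without LowInj subject 30 these were 0.02 and 0.05.

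Markers of the cells that carry these subunits are set beside these values. Neuronal markers (11 probe sets of 6 genes) had a median difference of -0.18 for LowCort against Sham and of 0.26 for IntermediateCort against LowCort, with 0 called in either. Astrocyte markers (17 probe sets of 7 genes) had medians of -0.13 and 0.06 in the same comparisons, again with 0 called. The log2 of the summed neuronal signal ran from 13.05 to 13.98 in LowInj, from 13.40 to 13.96 in IntermediateCort, from 13.24 to 14.00 in LowCort and from 13.33 to 14.09 in Sham, and that of the astrocyte signal from 14.49 to 15.19, from 14.87 to 15.15, from 14.66 to 15.08 and from 14.66 to 15.28 in those groups. In those 2 comparisons both medians had the sign of most beta subunit probe sets, but for LowInj against LowCort, where all 6 were positive, the neuronal median was -0.04 and the astrocyte median 0.03. CA1 pyramidal markers (5 probe sets of 3 genes) went the other way, with medians of 0.27 for LowCort against Sham (2 called), -0.37 for IntermediateCort against LowCort (3 called) and -0.25 for LowInj against LowCort (1 called). All of these calls were probe sets of Dcn, the matrix proteoglycan decorin, which is also in the fibroblast list. Dcn gave 3 of the 5 probe sets, and the median of -0.37 was the value of its probe set Z12298cds_s_at. These medians thus lean on 1 gene and do not describe CA1 pyramidal markers as a class. The single dentate granule marker tested, the calcium buffer Calb1, which CA1 cells also express, was called at -0.61 for LowCort against Sham (adjusted p = 0.000457 by limma) and at 0.60 for IntermediateCort against LowCort (adjusted p = 0.000904 by limma). For LowInj against IntermediateCort the neuronal median was -0.24, with 1 called, Camk2a at -0.57 (adjusted p = 0.0251 by limma). The astrocyte median there was -0.05 with 0 called. For LowInj against Sham the neuronal median was -0.23 and the astrocyte median -0.11, with 0 called in either list. The part of these cell types in the beta subunit values was not tested.

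The order of the group means differed between probe sets. IntermediateCort was highest in rc_AI230614_s_at and X63375exon_at, Sham was highest in rc_AI112173_at and J04629_at, and LowInj was highest in D90048exon_at and D90048exon_g_at. That place of LowInj rested on subject 30, without which LowInj minus Sham was -0.07 and -0.09 in these probe sets, against 0.00 and 0.02 with it, so that Sham lay above LowInj. LowCort had the lowest mean in 5 of the 6, and in D90048exon_at IntermediateCort lay lowest. None of these orders is established, since no pair of groups passed the test.

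Set side by side, all 6 probe sets had a negative difference of LowCort from Sham, with a median of -0.12 against -0.01 over all probe sets tested. For LowInj against LowCort all 6 differences were positive, with a median of 0.10 against 0.01 over all. That tally did not hold throughout, since rc_AI112173_at was -0.01 with quantile normalization and without any 1 of LowCort subject 22 and LowInj subjects 37 and 39, and -0.02 without the 4 arrays with a beta-actin difference (the 3' minus the 5' control probe set) above 1.5. J04629_at was -0.04 without LowInj subject 30, whose removal also took the D90048exon_at and D90048exon_g_at differences to 0.02 and 0.05. For IntermediateCort against LowCort 5 of 6 were positive, with a median of 0.05 against 0.01 over all. These comparisons share the LowCort arrays, and probe sets of a gene share its transcript, so the signs are not separate observations. None of the 6 passed in any of them, with unadjusted p from 0.193 to 0.279 for LowCort against Sham and from 0.102 to 0.796 for IntermediateCort against LowCort.

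**Figure D2:**
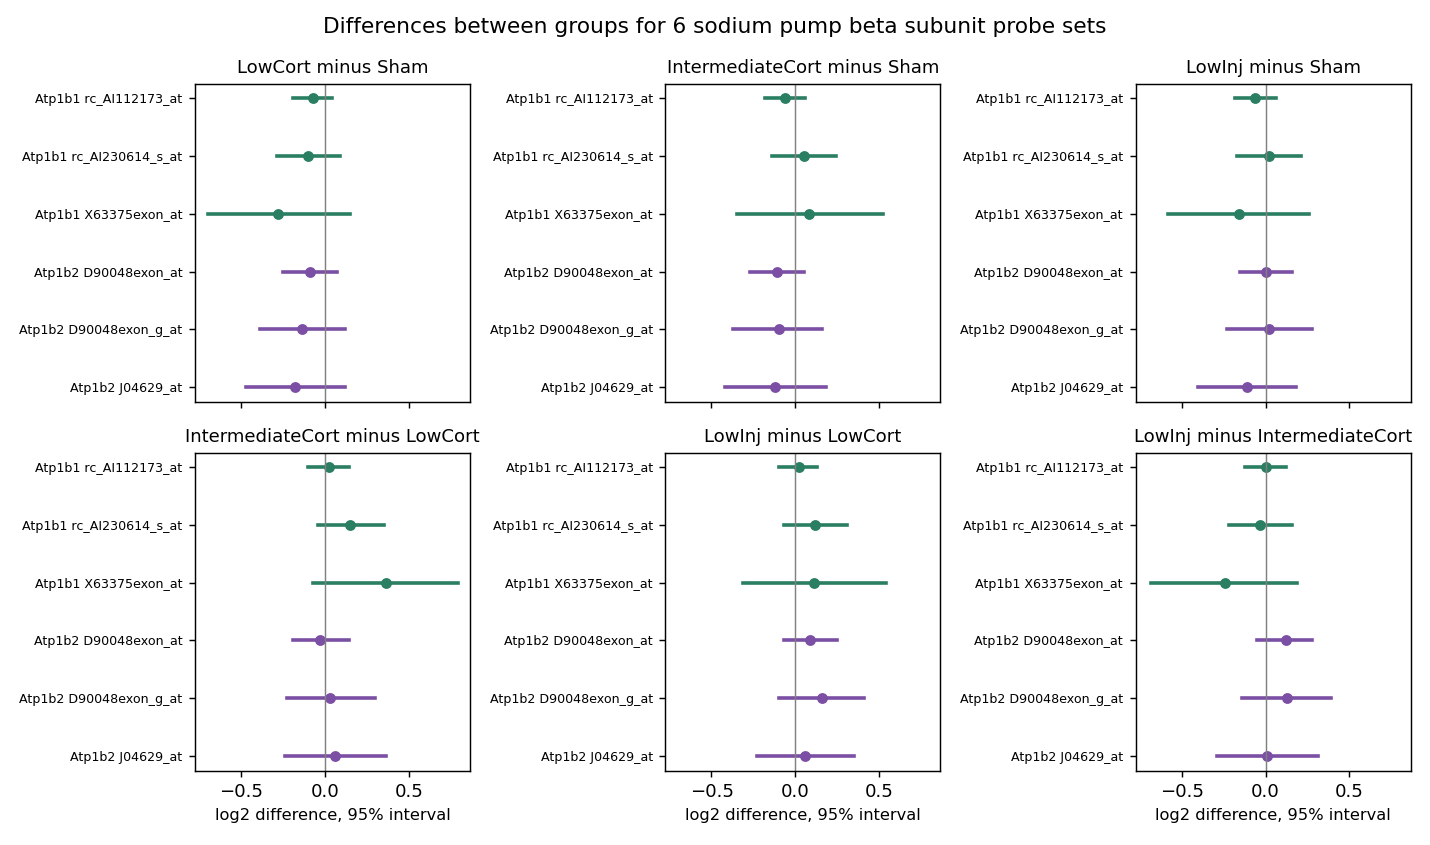
Log2 difference (horizontal axis) of each Atp1b1 (green) and Atp1b2 (purple) probe set in the 6 comparisons, with points for limma estimates and lines for 95% intervals. Each interval crosses 0, and the widest belong to X63375exon_at, with -0.07 to 0.79 for IntermediateCort minus LowCort.

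The 3 Atp1b1 probe sets did not rise and fall together across animals. Relations were computed over the 39 arrays after group means were removed, with permutation tests, and adjusted over 33 relations. The bright probe sets rc_AI112173_at and rc_AI230614_s_at were positively related, with Pearson's r of 0.546 (permutation p = 0.00034, adjusted 0.000935) and Spearman's rho of 0.53 (permutation p = 0.00058, adjusted 0.00174). Leaving out the 2 arrays farthest from the median gave 0.622, and within groups r was 0.777 in LowInj, 0.577 in IntermediateCort, 0.131 in LowCort and 0.771 in Sham. X63375exon_at was negatively related to rc_AI112173_at, with r of -0.423 (permutation p = 0.00767, adjusted 0.0158) and rho of -0.361 (permutation p = 0.0244, adjusted 0.0474). Leaving out 2 arrays gave -0.347, and r was -0.589 in LowInj, -0.36 in IntermediateCort, -0.447 in LowCort and -0.149 in Sham. So rats with a high value in rc_AI112173_at tended to have a low value in X63375exon_at. With the differences between 3' and 5' control probe sets of beta-actin and Gapdh also removed, r for that pair was 0.262. The remaining pair, rc_AI230614_s_at and X63375exon_at, did not pass with group means removed (r of 0.063, permutation p = 0.705, rho of 0.101).

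X63375exon_at followed the beta-actin difference instead, which is the log2 value of the 3' control probe set of beta-actin minus that of the 5' one and a measure of cDNA length. Over the 39 arrays r was -0.875 (adjusted p = 8.25e-05) and rho was -0.826 (adjusted p = 0.000165), both at a permutation p of 1e-05, the smallest the permutations can give. Leaving out the 2 arrays farthest from the median gave -0.843, and r was -0.933 in LowInj, -0.855 in IntermediateCort, -0.896 in LowCort and -0.871 in Sham. The lowest X63375exon_at value, 7.38, belonged to LowInj subject 39, whose beta-actin difference of 2.13 was the highest of all arrays. The mean beta-actin difference was 0.79 ± 0.69 in LowInj, 0.65 ± 0.36 in IntermediateCort, 0.93 ± 0.40 in LowCort and 0.68 ± 0.41 in Sham (SD). This mean was highest in LowCort, where X63375exon_at had its lowest mean, and the beta-actin difference was not tested between groups. With the beta-actin and Gapdh differences as covariates, IntermediateCort minus LowCort for X63375exon_at was 0.09 (SE 0.11, limma adjusted p = 0.81) and LowCort minus Sham was -0.04 (SE 0.10, limma adjusted p = 0.915).

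The other probe sets were related to the same measure to different degrees. rc_AI112173_at went the opposite way, with r of 0.59 (permutation p = 8e-05) and rho of 0.607 (permutation p = 3e-05), both 0.00033 after adjustment. Its r was 0.52 when 2 arrays were left out, and 0.656 in LowInj, 0.74 in IntermediateCort, 0.424 in LowCort and 0.46 in Sham. D90048exon_g_at went with X63375exon_at, at r of -0.663 (permutation p = 2e-05, adjusted 0.00011) and rho of -0.581 (permutation p = 9e-05, adjusted 0.000495), and its r was -0.594 when 2 arrays were left out and -0.628, -0.87, -0.756 and -0.601 in those groups. For D90048exon_at r was -0.561 (permutation p = 0.00028, adjusted 0.00084) and rho was -0.543 (permutation p = 0.00056, adjusted 0.00174), while r was -0.488 when 2 arrays were left out and -0.645, -0.506, -0.39 and -0.52 in those groups. By contrast, the relation did not pass for rc_AI230614_s_at (r of 0.187, permutation p = 0.255, rho of 0.052) or for J04629_at (r of -0.178, permutation p = 0.276, rho of -0.048).

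The Gapdh difference was formed in the same way from the Gapdh control probe sets, but did not always go with the beta-actin one. J04629_at was related to the Gapdh difference at r of -0.603 (permutation p = 0.00012, adjusted 0.000396) and rho of -0.544 (permutation p = 0.00048, adjusted 0.00174). Its r was -0.541 when 2 arrays were left out, and -0.75 in LowInj, -0.181 in IntermediateCort, -0.502 in LowCort and -0.416 in Sham. X63375exon_at was also related to the Gapdh difference, at r of -0.451 (permutation p = 0.00329, adjusted 0.00775). Its rho was -0.632 (permutation p = 4e-05, adjusted 0.00033). Its r was -0.786 when 2 arrays were left out, and -0.147, -0.918, -0.92 and -0.725 in those groups. For D90048exon_g_at r was -0.374 (permutation p = 0.0247, adjusted 0.0479) and rho was -0.413 (permutation p = 0.00956, adjusted 0.021). The other probe sets did not pass. The Gapdh difference averaged 1.03 ± 0.60 in LowInj, 0.63 ± 0.21 in IntermediateCort, 0.81 ± 0.24 in LowCort and 0.70 ± 0.22 in Sham (SD). LowInj subject 35 had the highest Gapdh difference of all arrays, 2.413, and the lowest beta-actin difference, 0.043. The rank of the subject number within a group, whose meaning the labels do not state, was also related to 3 of the probe sets at adjusted p under 0.05 for both coefficients. That r was 0.666 for rc_AI112173_at (adjusted permutation p = 8.25e-05), -0.527 for X63375exon_at (0.0014) and -0.647 for D90048exon_g_at (8.25e-05), with rho of 0.685, -0.485 and -0.612. The part of any of these measures in the differences between groups was not tested beyond the fits with them as covariates.

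**Figure D3:**
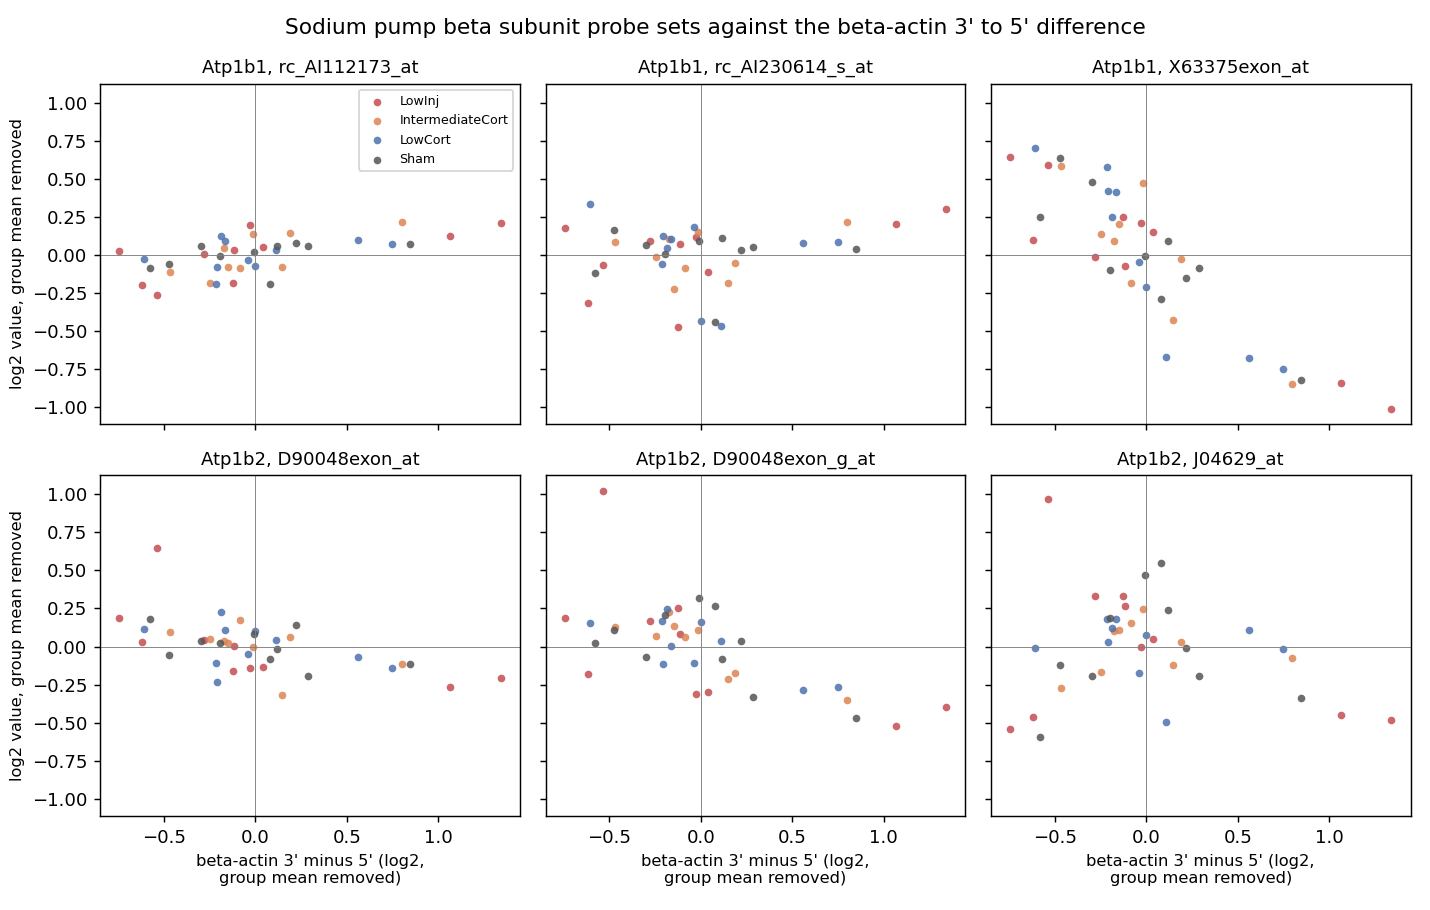
Log2 value of each probe set (vertical axis) against the beta-actin 3' minus 5' difference (horizontal axis, log2), both with group means removed, 1 point per animal coloured by group. X63375exon_at falls steeply along the axis (r = -0.875), rc_AI112173_at rises along it (r = 0.590), and rc_AI230614_s_at and J04629_at show little slope.

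Pairs of the 3 Atp1b2 probe sets all had a positive r across animals, but not every pair passed. D90048exon_at and D90048exon_g_at were related at r of 0.762 (permutation p = 1e-05, adjusted 8.25e-05) and rho of 0.564 (permutation p = 0.00026, adjusted 0.00107). That r was 0.577 when 2 arrays were left out, and 0.894 in LowInj, 0.604 in IntermediateCort, 0.675 in LowCort and 0.496 in Sham. For D90048exon_g_at and J04629_at r was 0.631 (permutation p = 2e-05, adjusted 0.00011) and rho was 0.57 (permutation p = 0.00026, adjusted 0.00107), with 0.448 when 2 arrays were left out and 0.775, 0.285, 0.121 and 0.636 in those groups. The pair D90048exon_at and J04629_at did not pass (r of 0.336, permutation p = 0.0379, adjusted 0.0658). Its rho was 0.107 (permutation p = 0.516). That pair had r of 0.073 when 2 arrays were left out, and 0.584, 0.23, 0.037 and -0.1 in those groups. Across genes, D90048exon_g_at was related to rc_AI112173_at negatively (r of -0.589, adjusted permutation p = 0.00033) and to X63375exon_at positively (r of 0.586, adjusted permutation p = 0.000141). With the beta-actin and Gapdh differences also removed, these became -0.326 and -0.043, while the 3 pairs within Atp1b1 were at 0.550, 0.262 and 0.493 and the 3 within Atp1b2 at 0.638, 0.342 and 0.735. Pairs of the same gene were then all positive, and those between the genes ran from -0.326 to 0.058.

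**Figure D4:**
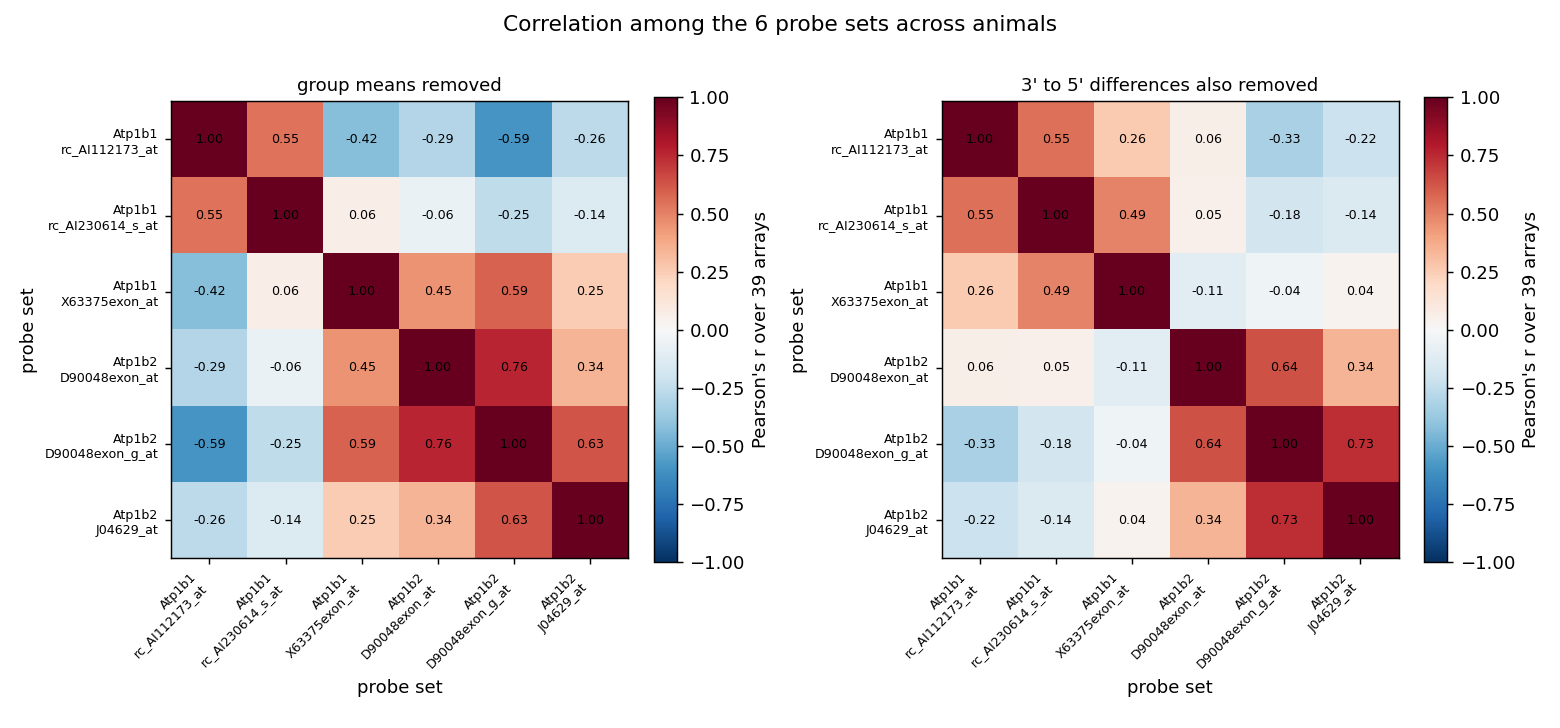
Pearson's r over 39 arrays between each pair of probe sets, as a matrix with values written in the cells, after removal of group means (left) and also of the beta-actin and Gapdh 3' to 5' differences (right). On the left X63375exon_at is negative with rc_AI112173_at (-0.42) and on the right the pairs within each gene are positive.

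Genes whose values followed each probe set most closely over the 39 arrays, with group means removed, differed even between probe sets of a gene. They were chosen by Pearson's r among probe sets with 1 symbol, and all points share their array. The beta-actin and Gapdh differences were not removed, and X63375exon_at had r of -0.875 with the beta-actin difference. Their part in these lists was not tested. For X63375exon_at they were Rab12 (r = 0.961), Ppp2cb (0.933), Fkbp1a (0.930), Nsf (0.928) and Tpm1 (0.928). For rc_AI112173_at they were Hnrnpa2b1 (0.870), Rtn1 (0.868), the ribosomal protein pseudogene Rps4x-ps9 (0.866), Cpe (0.858) and Selenop (0.854), and for rc_AI230614_s_at Atp5pf (0.875) came first. The lists for Atp1b2 were led by Ptbp1 for D90048exon_at (0.788), Kcnab2 for D90048exon_g_at (0.831) and Cplx1 for J04629_at (0.786). No gene was among the first 5 of more than 1 of the 6 probe sets by this measure.

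Other pump subunits also did not pass. Of 16 genes of the pump, its relatives and its FXYD regulators, 8 had a probe set with that symbol alone, and 8 probe sets of 5 genes passed the level filter. In each comparison 0 of the 8 were called, with list medians from -0.04 to 0.07 against -0.01 to 0.02 over all probe sets tested.

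Atp1b3, another beta subunit with wide expression, ran from 9.81 to 10.43 in LowInj (median 10.08), from 9.70 to 10.08 in IntermediateCort (median 9.97), from 9.81 to 10.37 in LowCort (median 10.21) and from 9.70 to 10.24 in Sham (median 9.97). It was highest in LowCort, with overlap. LowCort minus Sham was 0.19 (SE 0.07, unadjusted p = 0.00892, adjusted p = 0.167 by limma) and IntermediateCort minus LowCort was -0.22 (SE 0.07, unadjusted p = 0.00504, adjusted p = 0.129 by limma). Its differences had the opposite sign to those of the 3 Atp1b1 probe sets in both comparisons, and neither passed. The difference of IntermediateCort from LowCort did pass with quantile normalization (-0.24, adjusted p = 0.0278 by limma), with array weights (-0.24, adjusted p = 0.0125 by limma), and without LowCort subject 20 (adjusted p = 0.0451 by limma) or subject 26 (adjusted p = 0.0414 by limma).

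Fxyd1 encodes phospholemman, a small membrane protein that restrains the pump until it is phosphorylated. Its probe set rc_AA799645_at ran from 9.86 to 10.78 in LowInj (median 10.05), from 9.81 to 10.03 in IntermediateCort (median 9.85), from 9.38 to 10.04 in LowCort (median 9.90) and from 9.76 to 10.48 in Sham (median 10.01). LowInj minus LowCort was 0.29 in this probe set (SE 0.09, unadjusted p = 0.00228, adjusted p = 0.245 by limma) and 0.34 in rc_AA799645_g_at (SE 0.11, adjusted p = 0.352 by limma). LowInj minus IntermediateCort was 0.25 and 0.35 in the same probe sets, with adjusted p = 0.274 and 0.22 by limma. LowInj had the highest mean in both probe sets, and the groups overlapped. With array weights all 4 of these differences passed, at adjusted p from 0.0106 to 0.0349 by limma. Without LowInj subject 34, the highest animal in both, they were 0.22, 0.26, 0.18 and 0.27, at adjusted p from 0.437 to 0.768 by limma.

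Among genes of corticosteroid-regulated sodium transport, 14 probe sets of 9 genes were tested, and Sgk1 and the mineralocorticoid receptor Nr3c2 held all the calls. For LowCort against Sham 1 rose and 1 fell, for LowInj against Sham 1 fell, and for IntermediateCort against LowCort 1 rose. The 3 other comparisons had 0 calls in this list. Sgk1, which in kidney raises sodium channel and pump activity at the membrane, ran from 7.78 to 8.48 in LowInj (median 7.96), from 8.11 to 9.70 in IntermediateCort (median 8.54), from 7.73 to 8.27 in LowCort (median 7.91) and from 8.45 to 10.25 in Sham (median 9.47). LowCort did not overlap Sham, with means of 7.93 ± 0.17 in LowCort and 9.43 ± 0.59 in Sham (SD, n = 10 each, adjusted p = 2.9e-07 by limma). In the same arrays the 6 beta subunit probe sets had log2 differences from -0.28 to -0.07. The mineralocorticoid receptor Nr3c2 was higher in LowCort than in Sham by probe set M36074_g_at (log2 difference 0.44, SE 0.11, adjusted p = 0.0218 by limma), while M36074_at gave 0.28 (adjusted p = 0.128 by limma). The Nr3c2 call was lost with array weights (0.36, adjusted p = 0.0748 by limma) and without any 1 of Sham subjects 1, 3 and 5 or LowCort subjects 23, 28 and 29, at adjusted p from 0.0502 to 0.0636 by limma. Without Sham subject 8 or LowCort subject 25, M36074_at passed (0.33 in both, adjusted p = 0.0361 and 0.04 by limma). The Sgk1 difference of IntermediateCort from LowCort was 0.71 (adjusted p = 0.0213 by limma), and without IntermediateCort subject 16 or 19 it was 0.66 or 0.58 (adjusted p = 0.0568 and 0.0545 by limma). The epithelial sodium channel subunits Scnn1a, Scnn1b and Scnn1g, which act with the pump in steroid-sensitive epithelia, had differences of LowCort from Sham of 0.00, -0.04 and -0.08, none called.

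**Figure D5:**
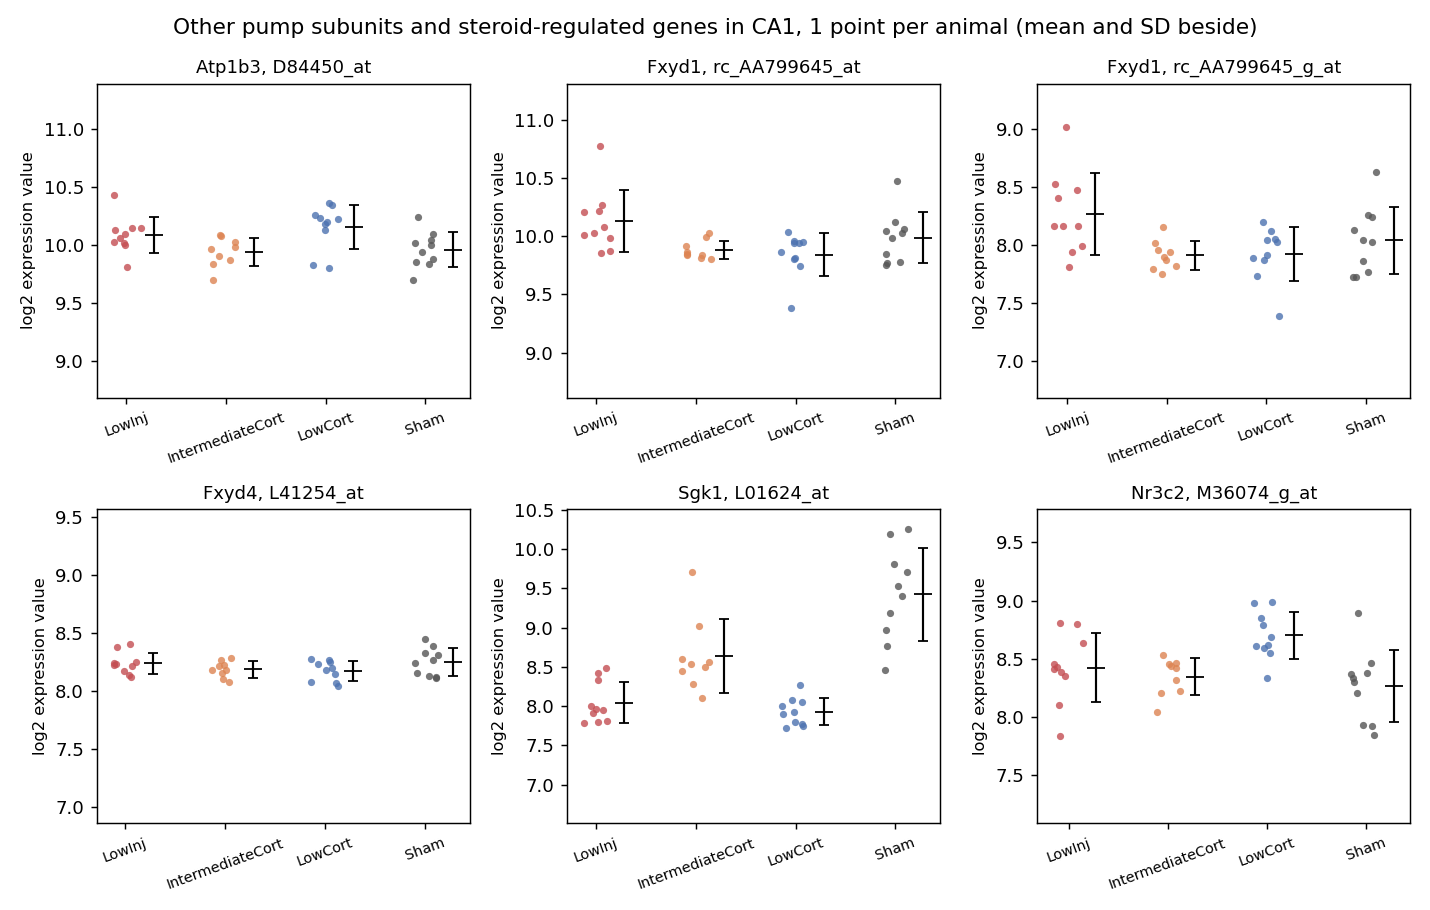
Log2 expression (vertical axis) of Atp1b3, Fxyd1 (2 probe sets), Fxyd4, Sgk1 and Nr3c2 in LowInj, IntermediateCort, LowCort and Sham rats, 1 point per animal, with mean and SD beside. The Sgk1 panel spans a wider axis range than the others. Sgk1 separates LowCort (7.73 to 8.27) from Sham (8.45 to 10.25), while Atp1b3 and Fxyd1 overlap between groups.

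Carriers that run on the sodium gradient, or take up the potassium that the pump also clears, were tested in 21 probe sets of 12 genes, with 0 called in each comparison. Their median differences lay between -0.05 and 0.05. The neuronal glutamate transporter Slc1a1, whose probe set D63772_at had the smallest F-test p of the list (adjusted p = 0.35 by limma), had 0.22 for IntermediateCort against Sham (SE 0.08, unadjusted p = 0.00597, adjusted p = 0.824 by limma). Its other tested probe sets, AF038571_s_at and L35558_s_at, had 0.09 and 0.08 in that comparison. The taurine transporter Slc6a6 had the smallest unadjusted p for LowCort against Sham among them (0.35, unadjusted p = 0.0135, adjusted p = 0.218 by limma). The glial bicarbonate cotransporter Slc4a4 had 0.20 for IntermediateCort against LowCort (unadjusted p = 0.0152, adjusted p = 0.247 by limma). The sodium-calcium exchanger Slc8a1 had 0.13 for LowInj against IntermediateCort in U04934_s_at (unadjusted p = 0.0214, adjusted p = 0.353 by limma). Its other tested probe sets had 0.05 (X68812_s_at, the brightest) and -0.06 (S67769_s_at).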

How the data were processed

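CA1 transcripts of 39 rats were measured on Affymetrix arrays. The authors deposited log2 expression values for 8799 probe sets, and the base was read from the values, since the highest value of 14.37 is above what a natural log of the scanner's range could reach. MAS5, RMA and R 2.7.1 are named per the submitters' processing notes, and their roles are not given in the sources used here. Groups came from the sample titles. The 59 control probe sets were left out, and 6118 probe sets with a mean at or above the 30th percentile (6.28) were tested, all 6 beta subunit probe sets among them. Group means were fitted with limma 3.58.1 in R 4.3.3 on all 39 arrays, with 35 residual degrees of freedom, and intervals are 95% intervals from that fit. The labels give no batch or pairing. Relations used 100000 permutations. The procedures were tested on simulated data. The members and lists were chosen with earlier results of these data known. Named genes were the 6 probe sets, list members called or, in lists with none, up to 4 with the smallest F-test p, and the 5 genes most like each probe set. The sodium channel subunits were named outside this rule, after their values were seen. The likeness lists are shown with group means removed.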

Additional observations from a re-analysis of the deposited data

Results flagged for a closer look

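A single animal stood far from the rest of its group in 4 of 24 pairs of probe set and group, where chance gives about 1 in 20. In LowInj, subject 30 had 9.09 in D90048exon_at, against 8.63 for the next animal, and 9.24 in D90048exon_g_at, against 8.48 for the next. The same rat was also highest in J04629_at at 9.92, and it was lowest of its group in Atp1b1 rc_AI112173_at at 12.52. Its beta-actin difference was 0.252 and its Gapdh difference 0.466, the lowest Gapdh difference of LowInj, and their part in its Atp1b2 values was not tested. In LowCort, subject 20 had 8.39 in J04629_at, against 8.71 for the next animal. In Sham, subject 3 had 11.15 in Atp1b1 rc_AI230614_s_at, against 11.47 for the next.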

How the results depend on the processing

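The count of called beta subunit probe sets was 0 in each comparison under each of 8 other settings (other filters, quantile normalization, array weights, covariates, trended variance and fits of 2 groups), under removal of each of the 39 animals in turn, and under removal of 4 arrays with a beta-actin difference above 1.5 (2 LowInj, 1 LowCort, 1 Sham), which was chosen after seeing the data. The lowest adjusted p by limma among all values of the 6 beta subunit probe sets was 0.288, for rc_AI112173_at in LowCort against Sham with the 3' to 5' covariates (-0.11). Its unadjusted p by limma in that fit was 0.0305. With the covariates LowInj minus IntermediateCort was 0.15 for D90048exon_at, 0.23 for D90048exon_g_at and 0.23 for J04629_at. By limma their unadjusted p was 0.0519, 0.0389 and 0.0803, and without covariates they were 0.12, 0.13 and 0.01. The Atp1b1 probe sets had -0.03, -0.04 and -0.05 with the covariates. The lowest unadjusted p by limma was 0.0355 on leaving out 1 animal and 0.0399 without the 4 arrays. Values that changed sign were all uncalled, and the cause was not tested. With quantile normalization again, rc_AI112173_at was 0.00 for IntermediateCort minus LowCort and -0.01 for LowInj minus LowCort. Over the whole table, counts of calls moved more. For LowCort against Sham 103 were called, and from 86 to 185 under those 8 settings. The same range was 103 to 338 around 131 for IntermediateCort against LowCort, 1 to 12 around 1 for IntermediateCort against Sham, 14 to 50 around 21 for LowInj against LowCort, 0 to 105 around 12 for LowInj against IntermediateCort, 1 to 33 around 14 for LowInj against Sham and 116 to 307 around 139 for the F test, which was not refitted on 2 groups. Calls of Atp1b3, Fxyd1, Nr3c2 and Sgk1 that changed are given beside their values, and the cause was not tested. Nr3c2 M36074_g_at was also not called without the 4 arrays (0.41, adjusted p = 0.0621 by limma). With array weights, D90048exon_at was -0.01 for LowInj minus Sham, and LowInj minus IntermediateCort was 0.02 for rc_AI112173_at and 0.01 for rc_AI230614_s_at. With the covariates, LowInj minus Sham was 0.00 for X63375exon_at and 0.08 for J04629_at, and IntermediateCort minus LowCort was -0.09 for D90048exon_g_at and -0.04 for J04629_at. Without the 4 arrays, IntermediateCort minus Sham was -0.01 for X63375exon_at, LowInj minus Sham was -0.04 for rc_AI230614_s_at and LowInj minus LowCort was -0.02 for rc_AI112173_at. Leaving out 1 animal at a time, rc_AI112173_at ran from -0.01 to 0.04 for IntermediateCort minus LowCort, from -0.02 to 0.03 for LowInj minus IntermediateCort and from -0.01 to 0.05 for LowInj minus LowCort. In the same way rc_AI230614_s_at ran from -0.07 to 0.02 for LowInj minus IntermediateCort and from -0.03 to 0.07 for LowInj minus Sham, and X63375exon_at from -0.01 to 0.19 for IntermediateCort minus Sham. D90048exon_at ran from -0.05 to 0.01 for IntermediateCort minus LowCort and from -0.07 to 0.03 for LowInj minus Sham, and D90048exon_g_at from -0.09 to 0.08 for LowInj minus Sham. J04629_at ran from -0.10 to 0.07 for LowInj minus IntermediateCort and from -0.04 to 0.12 for LowInj minus LowCort. No paired analysis was possible because each subject number belongs to 1 animal in 1 group. The 95% intervals give the range of differences compatible with these arrays in the fit without covariates.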
